A study of Mus musculus with 27 samples.

Results

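The 35 genes described here are the enzymes, carriers and regulators of glycolysis together with genes known to respond to low oxygen. They were chosen by name, as a list of gene symbols, and each is represented by the brightest probeset that names it alone and averages 6 or more on the log2 scale over 27 Affymetrix arrays of mouse embryonic stem (ES) cells. A probeset of its own was found for 32 of the 35, and 31 passed that level, out of 13989 genes tested. By role, 14 of 17 glycolytic enzymes, 3 of 3 glucose and lactate carriers, 4 of 4 regulators of flux, 3 of 3 genes of oxygen sensing and 7 of 8 other hypoxia-induced genes were measured. Gpi1 and Eno1 had no probeset named here, Gapdh was present only on 25 probesets shared with other genes, and Car9 had a mean of 5.31.

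Glycolysis splits glucose into pyruvate in the cytosol, and lactate dehydrogenase then passes electrons from NADH back to pyruvate to form lactate. Pyruvate that enters the mitochondrion is instead converted to acetyl-CoA by pyruvate dehydrogenase, which pyruvate dehydrogenase kinases switch off. When oxygen falls, prolyl hydroxylases of the EGLN family no longer mark the alpha subunits of hypoxia-inducible factor (HIF) for destruction, and HIF raises transcription of many glycolytic genes and of the EGLN genes themselves. ES cells are known to depend strongly on glycolysis.

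The study used short interfering RNA (siRNA) against MOF (gene Kat8), a histone acetyltransferase, and against MSL1 and NSL1, named for the MSL and NSL complexes in which MOF works. PGK12.1 is a female ES line whose blastocysts had a 129 dam and a sire from the (129 X PGK)F1 cross, WD44 a male line from BL6 blastocysts, and E14 a male Cast/BL6 hybrid line from a BL6 mother and a Cast. father. Control arrays came from cells given negative control siRNA, and all cells were undifferentiated, grown on feeder fibroblasts that were depleted on gelatin before transfection. Each line is 1 cell line, so a difference between lines is a difference between these lines. In PGK12.1, MOF siRNA was tested in experiments 1 and 2 (100 pmol for 48 h, then 400 pmol for 24 h) and in experiment 3 (100 pmol for 48 h), each with its own control array. PGK12.1 experiments A, B and C tested MSL1, experiments C, D and E tested NSL1, and experiments D and E tested MOF and MSL1 together (100 and 50 pmol), all for 48 h. Experiments A to E have 1 control array each, so the MSL1 and NSL1 comparisons share control C, and the NSL1 and MOF plus MSL1 comparisons share controls D and E. WD44 and E14 had 2 MOF experiments each (100 pmol for 48 h), with a control array in each.

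Every value below is a log2 expression value of 1 array, or a difference between log2 values, knockdown minus control. The difference of a comparison was fitted with limma with the experiment as a block, given with its standard error (SE), and is called where the p adjusted over 16283 probesets (Benjamini-Hochberg) is under 0.05. Kat8 fell by 1.22 ± 0.06 (SE) after MOF siRNA in PGK12.1, by 0.87 ± 0.07 after MOF plus MSL1 siRNA, by 0.84 ± 0.08 in WD44 and by 0.68 ± 0.08 in E14. Msl1 fell by 0.97 ± 0.07 after MSL1 siRNA and by 0.46 ± 0.08 after MOF plus MSL1 siRNA. The arrays labelled NSL1 had no clear check of their target: of 2 Kansl1 probesets, 1 fell by 0.24 and the other rose by 0.50, and Nsl1, the symbol of a kinetochore gene, differed by 0.16 with an adjusted p of 0.0502. Medians of single arrays lay between 6.22 and 7.96 and jumped between sets of experiments, so levels of a gene in different sets were not on 1 scale and the 3 lines were compared through their differences. The 10 ES cell markers averaged between 11.40 and 12.23 in every array, although single markers of the list were called lower in 3 comparisons, given beside those results. RNA came from whole cultures, in which fewer cells of a type and less RNA per cell cannot be told apart. Arrays of a gene that do not overlap are described without a share of all genes with that order, which was not counted.

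The sequence in front of these genes is shown first, because a HIF site has the core ACGTG or GCGTG and the genes are grouped here by their known response to HIF. In the 250 bases before the annotated start (RefSeq, GRCm38.p6), at least 1 match to either core on either strand was found for 30 of 33 genes with an entry (90.9%), against 59.0% of 11093 genes measured on the arrays and 41.5% of all 27025 genes with an entry. For ACGTG alone the shares were 63.6%, 24.2% and 18.5%. For a gene with several starts a match at any of them was counted, and Ndrg1 and Slc2a3 had no entry. All 9 entries among Egln1, Egln3 and the other hypoxia-induced genes (100.0%, Car9 included) and 14 of 17 glycolytic enzymes (82.4%) had a match to either core, and 88.9% and 41.2% had ACGTG. Gpi1, Tpi1 and Eno2 had none in this window. Each stretch below has 80 bases, with matches in capitals (CACGT and CACGC are the cores read on the other strand, and CACGTG counts on both). A stretch was chosen to hold as many matches as possible, at the start with the most, so that it shows a match by design. Further matches of the 250 bases can lie outside it: 3 of 5 are shown for Ldha and 3 of 4 for Pdk3. The first 4 are known HIF-induced genes, Egln3 and Egln1 of oxygen sensing, P4ha2 and Ero1l.
Egln3 (chr12:54204027-54204106, minus strand): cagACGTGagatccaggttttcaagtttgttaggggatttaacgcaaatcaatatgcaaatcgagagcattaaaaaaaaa
Egln1 (chr8:124949304-124949383, minus strand): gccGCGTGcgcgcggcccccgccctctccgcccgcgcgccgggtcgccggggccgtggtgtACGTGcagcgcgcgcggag
P4ha2 (chr11:54100814-54100893, plus strand): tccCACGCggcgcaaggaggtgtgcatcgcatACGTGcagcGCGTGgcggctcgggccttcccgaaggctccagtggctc
Ero1l (chr14:45318624-45318703, minus strand): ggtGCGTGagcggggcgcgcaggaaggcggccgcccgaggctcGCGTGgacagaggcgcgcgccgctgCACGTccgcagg

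The next stretches belong to 5 metabolic genes on which the comparisons below turn, and to Ldha, the muscle-type lactate dehydrogenase subunit, which was called in no comparison.
Slc16a3 (chr11:120948987-120949066, plus strand): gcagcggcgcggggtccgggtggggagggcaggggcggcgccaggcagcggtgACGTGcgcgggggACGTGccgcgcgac
Pdk3 (chrX:93832178-93832257, minus strand): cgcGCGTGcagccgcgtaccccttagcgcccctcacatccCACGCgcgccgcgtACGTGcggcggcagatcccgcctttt
Fbp2 (chr13:62858401-62858480, minus strand): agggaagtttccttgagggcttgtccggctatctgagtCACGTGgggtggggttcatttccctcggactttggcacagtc
Ldhb (chr6:142508007-142508086, minus strand): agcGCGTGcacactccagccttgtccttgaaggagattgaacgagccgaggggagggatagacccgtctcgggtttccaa
Ldha (chr7:46845724-46845803, plus strand): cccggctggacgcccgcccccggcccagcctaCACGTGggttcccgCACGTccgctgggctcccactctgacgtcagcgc
Aldoc (chr11:78322993-78323072, plus strand): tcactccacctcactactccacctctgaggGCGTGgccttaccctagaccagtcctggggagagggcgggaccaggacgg
A match is a description of these letters only. Ldhb and Aldoc, which moved in opposite directions below, each hold a single GCGTG in the stretch shown, and Fbp2, which rose, and Slc16a3, which fell, each hold ACGTG.

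Over the 6 comparisons, 17 of the 31 genes were called at least once and 14 never, with 28 calls among 186 gene and comparison pairs. The share of all genes called at least once, or repeatedly, was not counted, and the share in each comparison is given below. Calls in several comparisons are not independent, since controls C, D and E are shared. Pdk3, a kinase that switches off pyruvate dehydrogenase and lies on chromosome X, was called lower in 4 comparisons. Fbp2, the fructose bisphosphatase that runs the phosphofructokinase step backwards, was called higher in 3, and Ldhb, the lactate dehydrogenase subunit that is more common in oxidative tissues, was called higher in 3. No gene was called in both directions. The genes never called include Ldha, Aldoa and Pgam1 of the pathway itself, the glucose carrier Slc2a3, Hif1a, and Vegfa, Ankrd37, Ero1l, Ndrg1 and Higd1a of the hypoxia-induced genes.

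**Figure D1:**
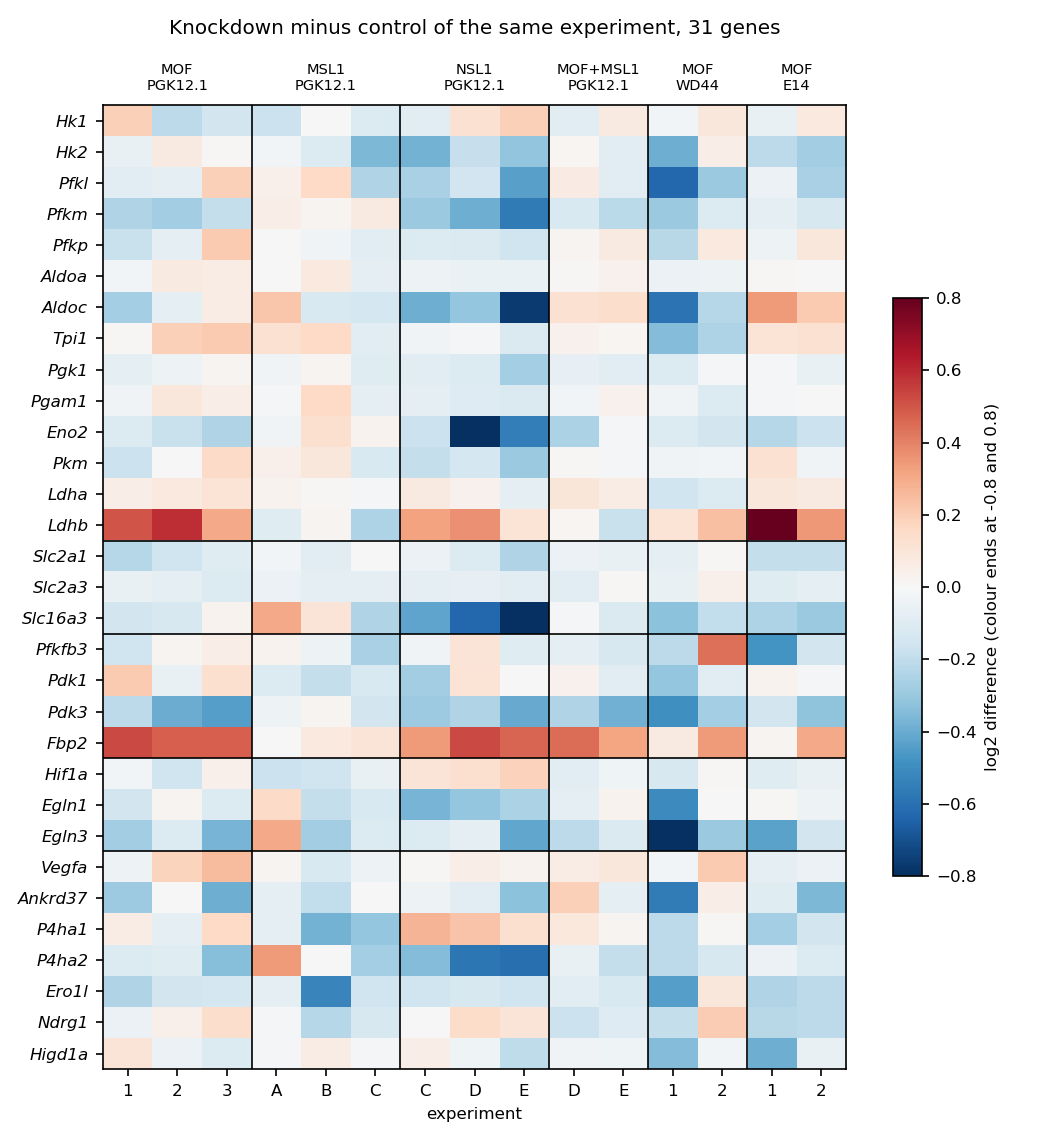
Log2 difference between knockdown and control array of the same experiment for each of the 31 measured genes (rows, in blocks by role: glycolytic enzymes, carriers, regulators, oxygen sensing, other hypoxia-induced genes) in 15 experiment comparisons (columns); red is higher and blue lower after knockdown, and the colour ends at -0.8 and 0.8. Fbp2 is at or above 0 in all 15 columns, Pdk3 is below 0 in 14 of 15, and Slc16a3 and Eno2 are deepest blue in the NSL1 columns.

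After MOF siRNA in PGK12.1, 5 of the 31 genes were called, 2 higher and 3 lower, which is 16.1% against 24.5% of the 13989 genes tested (9.84% higher and 14.6% lower). Fbp2 and Ldhb rose, and Pdk3, Pfkm and the glucose carrier Slc2a1 fell. Among the 14 glycolytic enzymes the median difference was 0.00 and 2 were called. None of the 9 hypoxia-induced genes (Egln1, Egln3 and the 7 others) was called, with a median of -0.08, while the median over all genes was 0.00. Of the 10 ES cell markers, Utf1 (-0.25 ± 0.06), Tdgf1 (-0.17 ± 0.05) and Nanog (-0.14 ± 0.05) fell, with list means of 11.47 to 12.12 in the controls and 11.40 to 12.01 after MOF siRNA. Of 6 trophectoderm markers measured, Gata3 (0.28 ± 0.06) and Tfap2c (0.16 ± 0.05) rose, with list means of 6.87 to 7.84 and 6.98 to 8.03. The part of these markers in the result was not tested.

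Fbp2 (probeset 10409999) was at 8.22, 8.28 and 8.27 in the controls of experiments 1, 2 and 3 and at 8.75, 8.76 and 8.75 after MOF siRNA. All 3 knockdown arrays lay above all 3 controls, although experiment 3 had a single round of siRNA. The difference was 0.50 ± 0.06 (SE, adjusted p = 9.57e-05), or 141.1% of control. Without the replicate block Fbp2 was not called (adjusted p = 0.172, with 4.42e-05 to 0.172 over 12 alternatives).

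Ldhb (probeset 10549097) was at 7.70, 7.70 and 9.20 in the controls and at 8.20, 8.29 and 9.50 after MOF siRNA. Both arrays of experiment 3 were higher than those of experiments 1 and 2, and within each experiment the knockdown was higher. The difference was 0.46 ± 0.09 (adjusted p = 0.00164), and the other Ldhb probeset gave 0.29 ± 0.07 (adjusted p = 0.00715).

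Pdk3 (probeset 10605711) was at 9.72, 9.90 and 10.15 in the controls and at 9.51, 9.50 and 9.71 after MOF siRNA. The knockdown arrays were lower in each experiment and did not overlap the controls, although the knockdown of experiment 3 lay only just below the lowest control. The difference was -0.35 ± 0.06 (adjusted p = 0.00104), or 78.5% of control.

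Pfkm, the muscle-type phosphofructokinase subunit, was at 8.79, 8.75 and 9.55 in the controls and at 8.55, 8.47 and 9.36 after MOF siRNA. It was lower in each experiment, by -0.24 ± 0.05 (adjusted p = 0.00527). The liver-type and platelet-type subunits Pfkl and Pfkp were not called, at 0.01 and -0.01. Slc2a1 was at 12.06, 11.99 and 12.77 in the controls and at 11.83, 11.83 and 12.67 after MOF siRNA, a difference of -0.16 ± 0.05 (adjusted p = 0.0235). Without the block neither was called, with adjusted p of 0.106 for Pfkm (0.00319 to 0.106 over 12 alternatives) and 0.183 for Slc2a1 (0.0157 to 0.183), and with the arrays of these experiments alone neither was called. Slc2a1 lost its call in 5 of 12 alternatives.

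Hk1, hexokinase of the first step, depends on its probeset. Its brightest probeset (10414661) lists a single cDNA record that 16 probesets naming Rpl17 list too, and it was not called in any comparison. By the rule of the brightest probeset, it stands for Hk1 in the counts and medians. The probeset that lists the RefSeq mRNAs of Hk1 (10369541) rose by 0.18 ± 0.05 (adjusted p = 0.023) after MOF siRNA in PGK12.1, with controls at 7.59, 7.57 and 8.20 and knockdowns at 7.83, 7.63 and 8.44. After MOF plus MSL1 siRNA the same probeset rose by 0.29 ± 0.06 (adjusted p = 0.013), from 9.10 and 9.20 to 9.30 and 9.55. That choice of probeset was made after the values were seen.

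**Figure D2:**
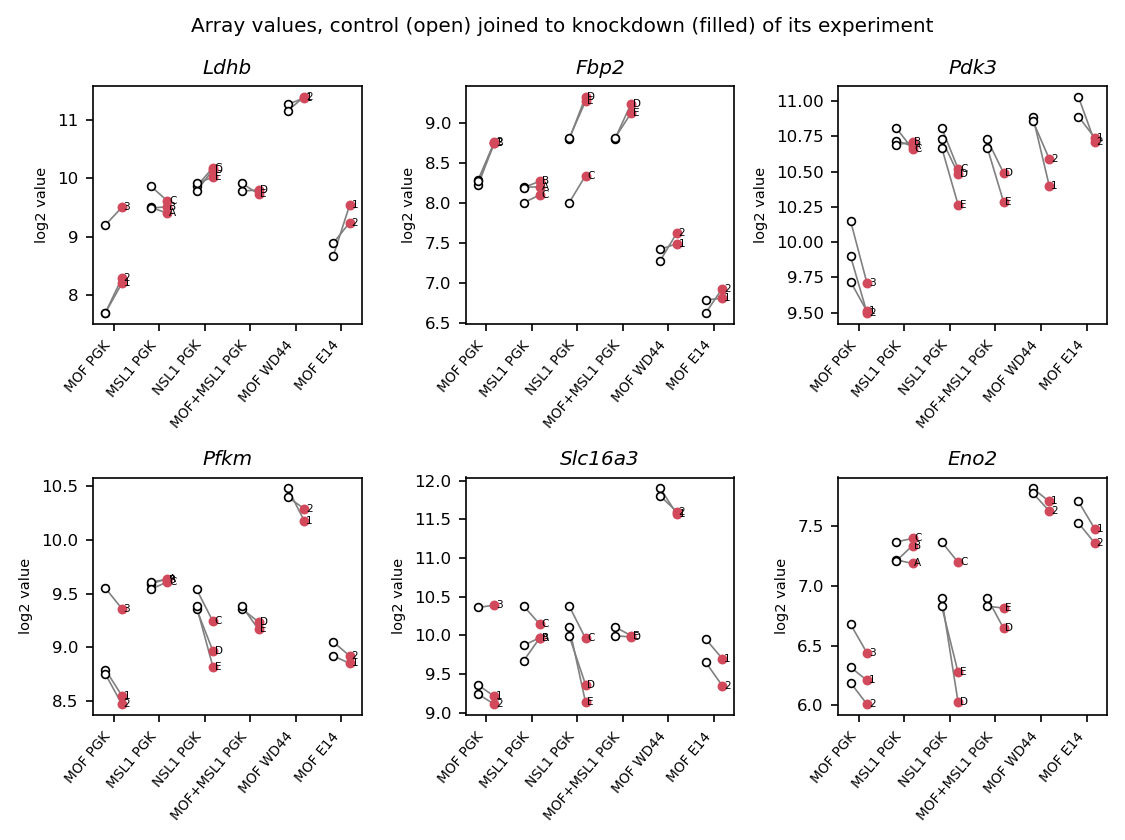
Log2 value of each array for Ldhb, Fbp2, Pdk3, Pfkm, Slc16a3 and Eno2, with the control of an experiment (open circle) joined to its knockdown (filled circle, marked with the experiment) in the 6 comparisons; controls C, D and E appear under each comparison that uses them. The lines of Fbp2 rise from 8.22 to 8.28 in the PGK12.1 controls to 8.75 to 8.76 after MOF siRNA, and those of Slc16a3 and Eno2 fall most under NSL1, while sets of experiments sit at different levels.

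After MSL1 siRNA in PGK12.1 none of the 31 genes was called with limma, against 0.214% of all genes (30 genes). At an unadjusted p under 0.05 there were 4 of 31 (1 without the block, 3 with the arrays of these experiments alone), against 10.3% of all genes. The smallest was for P4ha1, a collagen prolyl hydroxylase subunit, with controls A, B and C at 9.03, 9.31 and 9.09 and knockdowns at 8.95, 8.93 and 8.78. The knockdown arrays were lower in all 3 experiments, least in A, and the difference of -0.27 ± 0.06 had an adjusted p of 0.111. All 9 hypoxia-induced genes had fitted differences below 0, with a median of -0.05 against 0.00 for all genes. Within experiments A, B and C, 5, 7 and 8 of the 9 were below 0, with medians of -0.01, -0.2 and -0.12. Control B itself stood above control A in all 9 of these genes. Fbp2 (0.08 ± 0.06, 95% interval -0.05 to 0.21) and Pdk3 (-0.07 ± 0.06, interval -0.20 to 0.06) were not called here.

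On the arrays labelled NSL1, 15 of the 31 genes were called, 3 higher and 12 lower, or 48.4% against 41.2% of all genes (18.8% higher and 22.4% lower). Of the 14 glycolytic enzymes, 7 fell and 1 rose, with a median of -0.13 against -0.01 for all genes. The carriers Slc16a3 and Slc2a1 fell, Pdk3 fell and Fbp2 rose. Of the 9 hypoxia-induced genes, Egln1 and P4ha2 fell and P4ha1 rose.

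Markers of cell types moved on the arrays labelled NSL1 too. Of the 10 ES cell markers, Utf1 (-0.25 ± 0.06) and Tdgf1 (-0.19 ± 0.05) fell, and the list mean was 11.90 to 11.92, below the 11.94 or more of all 5 controls A to E. Of 6 trophectoderm markers measured, Eomes (0.52 ± 0.08) and Gata3 (0.33 ± 0.06) rose and Krt18 (-0.25 ± 0.05) and Tfap2c (-0.14 ± 0.04) fell, with list means of 7.91 to 8.05 against 7.89 to 8.09 in the controls. Of 7 primitive endoderm markers, Dab2 (0.45 ± 0.08) and Gata6 (0.37 ± 0.08) rose, with list means of 6.60 to 7.05 against 6.44 to 6.98. Of 8 fibroblast markers, Pdgfrb (-0.34 ± 0.06) and Thy1 (-0.23 ± 0.06) fell, with list means of 5.85 to 6.54 against 5.84 to 6.46. The part of these markers in the result was not tested.

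Pfkm had the smallest p. Controls C, D and E were at 9.54, 9.36 and 9.38 and the arrays labelled NSL1 at 9.24, 8.96 and 8.82, so that all 3 lay below every control. The difference was -0.42 ± 0.05 (adjusted p = 1.53e-05), or 75.0% of control. Hk2, the inducible hexokinase, fell by 0.26 ± 0.07 (adjusted p = 0.0088), and Pfkl fell by 0.24 ± 0.08 (adjusted p = 0.0337).

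Eno2, the neuronal-type enolase, was at 7.37, 6.90 and 6.83 in the controls and at 7.20, 6.03 and 6.28 on the arrays labelled NSL1. The drop was small in experiment C and large in D and E, so that the groups overlapped through experiment C, and the fitted difference was -0.51 ± 0.09 (adjusted p = 0.000291). Aldoc, an aldolase of brain, was at 9.22, 8.89 and 8.96 in the controls and at 8.83, 8.58 and 8.19 on the arrays labelled NSL1. All 3 were below controls C, D and E, by -0.46 ± 0.10 (adjusted p = 0.00147). Control A, at 8.41, lay below the arrays labelled NSL1 of C and D, and control B, at 8.80, below that of C. Without the block, against 5 pooled controls, the difference of -0.32 was not called (adjusted p = 0.119, with 0.000378 to 0.119 over 15 alternatives).

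The remaining enzymes moved less. Pkm, pyruvate kinase, fell by 0.19 ± 0.06 (adjusted p = 0.0228), and its RefSeq-annotated probeset fell by 0.15. Pgk1, phosphoglycerate kinase on chromosome X, fell by 0.14 ± 0.05 (adjusted p = 0.031). A pair of its 3 probesets held the same values on all 27 arrays and the remaining one differed by at most 0.08, so they are not separate measurements. Ldhb rose, from 9.86, 9.78 and 9.91 to 10.18, 10.15 and 10.02, by 0.30 ± 0.09 (adjusted p = 0.0116). All 3 arrays labelled NSL1 were above the controls, while Ldha was at 0.02 ± 0.04 and was not called. Of 15 alternatives, the call was lost in 10 for Pgk1, 8 for Pfkl, 8 for Slc2a1, 5 for Pkm, 3 for Ldhb and 2 for P4ha1.

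Slc16a3, the lactate exporter of glycolytic cells, had the largest difference of the 31 genes in this comparison. It was at 10.38, 9.99 and 10.11 in controls C, D and E and at 9.96, 9.36 and 9.14 on the arrays labelled NSL1. These lay below controls C, D and E, and the difference was -0.60 ± 0.10 (adjusted p = 0.000264), or 65.8% of control. Controls A and B, at 9.67 and 9.87, lay below the array labelled NSL1 of experiment C. Slc2a1 fell by 0.13 ± 0.05 (adjusted p = 0.0318), and Slc2a3, the neuronal-type glucose carrier, was at -0.07 ± 0.04 and was not called.

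Fbp2 was at 8.00, 8.79 and 8.80 in the controls and at 8.34, 9.32 and 9.27 on the arrays labelled NSL1. Experiment C lay below D and E in both groups, and within experiments the difference was 0.43 ± 0.06 (adjusted p = 5.24e-05). Pdk3 was at 10.81, 10.73 and 10.67 in the controls and at 10.52, 10.48 and 10.27 on the arrays labelled NSL1, all below every control, by -0.29 ± 0.06 (adjusted p = 0.00108). Pdk1, the related kinase that is a known HIF target, was at -0.08 ± 0.07 and was not called.

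Among genes of oxygen sensing, Egln1, the main HIF prolyl hydroxylase, was at 9.55, 9.56 and 9.45 in the controls and at 9.18, 9.25 and 9.20 on the arrays labelled NSL1. It fell by 0.30 ± 0.08 (adjusted p = 0.00553), with no overlap. Hif1a was higher in each experiment, by 0.12 ± 0.05, and missed the threshold (adjusted p = 0.0629). The collagen prolyl hydroxylase subunits moved in opposite directions: P4ha2 went from 6.96, 6.53 and 6.44 to 6.61, 5.95 and 5.84, and P4ha1 from 9.09, 8.79 and 8.79 to 9.36, 9.02 and 8.92. P4ha2 fell by 0.45 ± 0.09 (adjusted p = 0.0013), and P4ha1 rose by 0.22 ± 0.06 (adjusted p = 0.0113). Without the block P4ha1 was at 0.10 and not called (adjusted p = 0.545, with 0.000535 to 0.545 over 15 alternatives).

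The NSL1 and MSL1 differences were compared directly in the same fit. They share control C. In that contrast 10 of 31 genes were called (32.3%, against 33.9% of all genes, 15.8% higher and 18.1% lower). Relative to MSL1, the arrays labelled NSL1 were lower for Slc16a3 (-0.59 ± 0.13), Eno2 (-0.48 ± 0.11), Pfkm (-0.44 ± 0.07), P4ha2 (-0.42 ± 0.12), Aldoc (-0.42 ± 0.12) and Pdk3 (-0.23 ± 0.08). They were higher for P4ha1 (0.49 ± 0.08), Ldhb (0.42 ± 0.11), Fbp2 (0.35 ± 0.08) and Hif1a (0.24 ± 0.06). Between NSL1 and MOF siRNA in PGK12.1, 1 of 31 genes differed (3.23%, against 16.6% of all genes, 8.41% higher and 8.19% lower), Slc16a3 by -0.52 ± 0.15 (adjusted p = 0.0289).

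After MOF plus MSL1 siRNA, 2 of 31 genes were called, or 6.45% against 6.93% of all genes (3.51% higher and 3.42% lower), Fbp2 higher and Pdk3 lower. Fbp2 was at 8.79 and 8.80 in controls D and E and at 9.24 and 9.12 after knockdown, both above both controls, by 0.35 ± 0.07 (adjusted p = 0.0132). Pdk3 was at 10.73 and 10.67 in the controls and at 10.49 and 10.28 after knockdown, both below, by -0.30 ± 0.07 (adjusted p = 0.0244). Both calls were lost when any 1 of the 4 arrays of the comparison was left out, and without the block, against all 5 controls of A to E, the Fbp2 difference was 0.78. Ldhb was not called here (-0.05 ± 0.10, 95% interval -0.27 to 0.17), and none of the 9 hypoxia-induced genes was called, with a median of -0.03. Of the markers of ES cells and of the other cell types, Tfap2c was called, at 0.27 ± 0.05, and its part in the result was not tested.

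**Figure D3:**
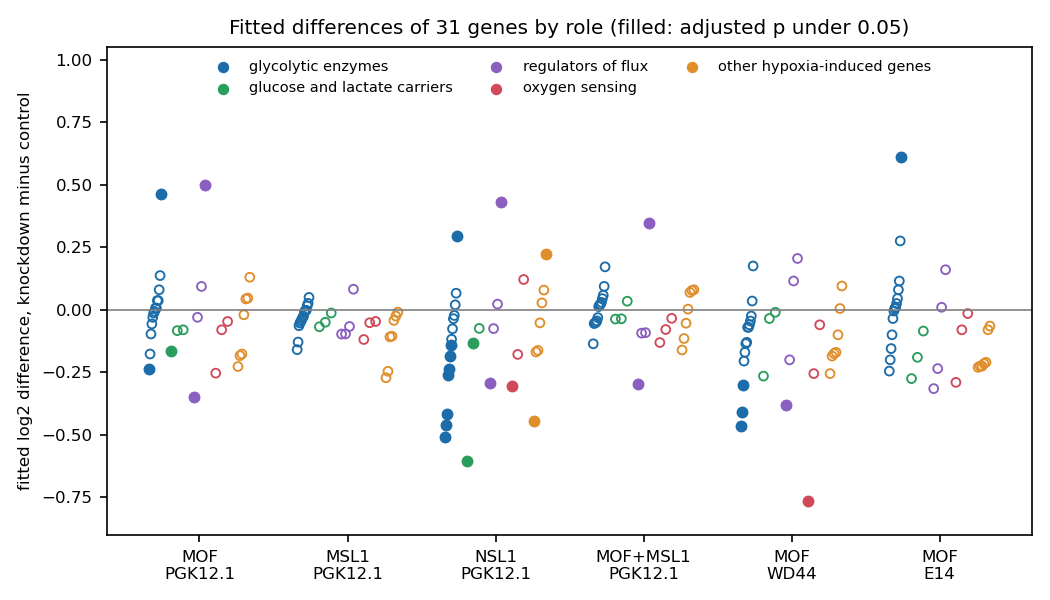
Fitted log2 difference (knockdown minus control) of each of the 31 genes in the 6 comparisons, coloured by role, with filled points for an adjusted p under 0.05. Calls are most frequent under NSL1, with 15 filled points, and absent under MSL1; the lowest filled point is Egln3 in WD44 at -0.77 and the highest is Ldhb in E14 at 0.61.

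In the male line WD44, 5 of the 31 genes were called after MOF siRNA, all lower, or 16.1% against 12.7% of all genes (4.45% higher and 8.28% lower). Egln3, the most strongly HIF-induced prolyl hydroxylase, Pfkl, Aldoc, the triose phosphate isomerase Tpi1, and Pdk3 fell. Of the 14 glycolytic enzymes 3 fell and 12 had differences below 0, with a median of -0.10 against -0.02 for all genes. All 5 calls were lost without experiment 1, and those of Tpi1 and Aldoc were lost without experiment 2 as well. None was called without the block or with the WD44 arrays alone.

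Egln3 (probeset 10400304) was at 11.27 and 10.31 in the controls of experiments 1 and 2 and at 10.04 and 10.01 after MOF siRNA. The control of experiment 1 stood 0.96 above the other, while the knockdown arrays were alike and below both. The difference was -0.77 ± 0.17 (adjusted p = 0.0129, with 0.00631 to 0.485 over 11 alternatives), made of -1.23 in experiment 1 and -0.30 in experiment 2.

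Pfkl was at 11.60 and 11.31 in the controls and at 10.97 and 11.01 after MOF siRNA, a difference of -0.47 ± 0.11 (adjusted p = 0.0136). Tpi1 was at 12.28 and 12.20 in the controls and at 11.93 and 11.95 after knockdown, a difference of -0.30 ± 0.07 (adjusted p = 0.0159). Aldoc was at 9.69 and 9.55 and then at 9.10 and 9.32, a difference of -0.41 ± 0.12 (adjusted p = 0.0425), and kept its call in 3 of 11 alternatives. Pdk3 was at 10.89 and 10.86 and then at 10.40 and 10.59, a difference of -0.38 ± 0.08 (adjusted p = 0.00781). For each of these 4 genes both knockdown arrays lay below both controls. The share of all genes with this order was not counted.

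The controls of WD44 differed from each other in the hypoxia-induced genes. All 9 were higher in control 1 than in control 2, with a median difference of 0.44 between these arrays, while the median over all genes was 0.00. Ankrd37 was at 8.52 and 7.85, Ero1l at 11.37 and 10.91, Ndrg1 at 10.15 and 9.67, and Egln1 at 9.77 and 9.33. Of the 13989 genes, 20 (0.143%) were over 0.5 higher in control 1, and these included 3 of the 31 genes (Egln3, Ankrd37 and Pfkfb3) and 3 other known HIF targets, Adm (0.98), Bnip3 (0.77) and Bhlhe40 (0.63). The MOF arrays of WD44 differed by a median of 0.03 in the same 9 genes. All 9 genes were below their control in experiment 1 (median -0.35) and 3 of 9 in experiment 2 (median 0.01).

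Fibroblast markers moved in WD44 as well: 5 of the 8 that were measured rose (Acta2, Col1a1, Col3a1, Col5a2 and Col1a2), and the mean of the list of 12 was between 7.80 and 7.89 in the controls and between 8.03 and 8.06 after MOF siRNA, without overlap. Of the list, 4 genes had a mean below 6. In E14, 1 of the 8 rose (Acta2) and the mean went from between 6.11 and 6.14 to between 6.21 and 6.25, and after MOF siRNA in PGK12.1 none rose. Of 6 trophectoderm markers measured, Krt18 rose in WD44, and the mean of that list of 7 was between 9.80 and 9.88 in the controls and between 9.95 and 9.98 after MOF siRNA. Of 7 primitive endoderm markers, Dab2 fell in WD44 (-0.33 ± 0.10) and Lama1 in E14 (-0.37 ± 0.07), and of the 10 ES cell markers Sox2 fell in E14 (-0.21 ± 0.06) and none in WD44. The part of these markers in the WD44 and E14 results was not tested.

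**Figure D4:**
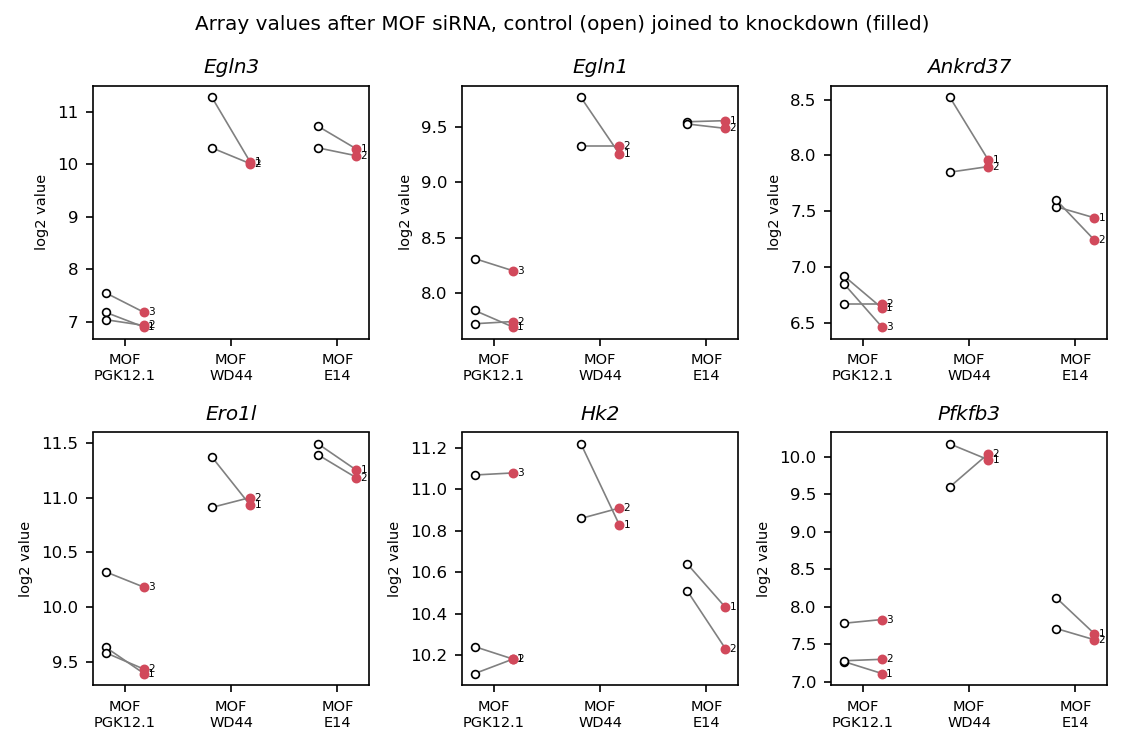
Log2 value of each array for Egln3, Egln1, Ankrd37, Ero1l, Hk2 and Pfkfb3 in the 3 lines, with the control (open circle) joined to the MOF knockdown (filled circle, marked with the experiment). In WD44 the control of experiment 1 stands above the control of experiment 2 in all 6 panels (11.27 against 10.31 for Egln3), and the knockdown arrays lie close together.

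In the male line E14, 1 of 31 genes was called after MOF siRNA, Ldhb, or 3.23% against 8.7% of all genes (3.77% higher and 4.93% lower). Ldhb was at 8.67 and 8.89 in the controls and at 9.54 and 9.24 after MOF siRNA, both above both controls. The difference was 0.61 ± 0.11 (adjusted p = 0.00463), or 152.6% of control, and the other probeset gave 0.57 ± 0.08 (adjusted p = 0.00145). The call was lost without experiment 1, where the difference was 0.87, against 0.35 in experiment 2, and with the E14 arrays alone. Slc2a1 missed the threshold, with controls at 12.72 and 12.66 and knockdowns at 12.53 and 12.47 (-0.19 ± 0.06, adjusted p = 0.0603), as did Pdk3, with controls at 10.89 and 11.03 and knockdowns at 10.74 and 10.71 (-0.24 ± 0.08, adjusted p = 0.0695).

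All 9 hypoxia-induced genes had fitted differences below 0 in E14, from -0.29 for Egln3 to -0.02 for Egln1, with a median of -0.22 against 0.00 for all genes, and none was called. Ero1l, the disulphide-forming oxidase of the endoplasmic reticulum, was at 11.49 and 11.39 in the controls and at 11.25 and 11.18 after knockdown. Ndrg1 was at 8.95 and 8.76 and then at 8.73 and 8.55, and P4ha1 at 9.19 and 9.0 and then at 8.92 and 8.85. Both knockdown arrays of Ero1l, Ndrg1 and P4ha1 lay below both controls, at adjusted p of 0.216, 0.125 and 0.124. These genes were picked after their values were seen, and the share of all genes with this order was not counted. The glycolytic enzymes of the same arrays had a median of 0.01.

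The responses of the 3 lines to MOF siRNA were compared in the same fit. PGK12.1 and WD44 differed in 1 of 31 genes (3.23%, against 2.24% of all genes, 1.36% higher and 0.886% lower): the Tpi1 difference was 0.44 ± 0.09 higher in PGK12.1 (adjusted p = 0.0247), at 0.14 ± 0.06 there and -0.30 in WD44. None of the other 30 was called between PGK12.1 and WD44. By the brightest probesets limma called none between PGK12.1 and E14 (2.58% of all genes, 1.26% higher and 1.32% lower) or between WD44 and E14 (1.47% of all genes, 0.558% higher and 0.908% lower), with 5 and 5 of 31 at an unadjusted p under 0.05. For Egln3 the difference between PGK12.1 and WD44 was 0.51 ± 0.22 (adjusted p = 0.233), and for Aldoc that between WD44 and E14 was -0.69 ± 0.18 (adjusted p = 0.0658). For Ldhb the other probeset differed between WD44 and E14 by -0.51 ± 0.12 (adjusted p = 0.0495), and the brightest by -0.44 ± 0.15 (adjusted p = 0.167). Fbp2 was called in PGK12.1 and not in WD44 (0.21 ± 0.08) or E14 (0.16 ± 0.08), but the lines were not shown to differ: PGK12.1 exceeded WD44 by 0.29 ± 0.10 (adjusted p = 0.144) and E14 by 0.34 ± 0.10 (adjusted p = 0.0902). The doses differed: PGK12.1 experiments 1 and 2 had a further round of siRNA.

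Glycolytic enzymes and hypoxia-induced genes were set side by side by their medians, with no test. Hif1a, the carriers and the regulators of flux were in neither group, although Pdk1 among them is a known HIF target. The fitted median of the 14 enzymes minus that of the 9 hypoxia-induced genes was 0.08 after MOF siRNA in PGK12.1, 0.02 after MSL1, 0.03 on the arrays labelled NSL1, 0.05 after MOF plus MSL1, 0.08 in WD44 and 0.22 in E14. Within experiments the same quantity was above 0 in all 3 MOF experiments in PGK12.1 (0.045, 0.03 and 0.17), in all 3 MSL1 experiments (0.01, 0.22 and 0.025), in both in E14 (0.21 and 0.15), and in experiments D and E of MOF plus MSL1 (0.07 and 0.07). It was below 0 in all 3 NSL1 experiments (-0.06, -0.04 and -0.01), where the fitted value was above 0, and it was 0.215 and then -0.085 in the WD44 experiments. The margin was 0.15 or more in 5 experiments, MOF 3 and MSL1 B in PGK12.1, WD44 1 and both of E14, and on the arrays labelled NSL1 both medians were below 0 in every experiment.

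**Figure D5:**
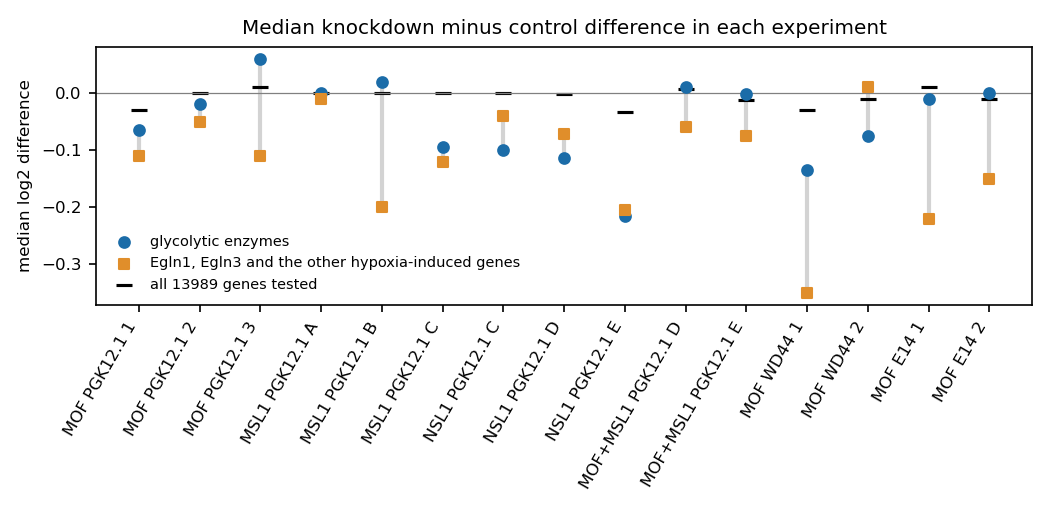
Median log2 difference in each experiment of the 14 glycolytic enzymes (circles), of the 9 hypoxia-induced genes (Egln1, Egln3 and the 7 others, squares) and of all 13989 genes (bars). The squares lie below the circles in 11 of 15 experiment comparisons, lowest in WD44 experiment 1 at -0.35. The 3 NSL1 experiments and WD44 experiment 2 have the reverse order. The 15 comparisons come from 12 experiments, and those of C, D and E share a control array.

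Control arrays of 1 set also differed from each other in PGK12.1. Control C stood above control A by 0.81 for Aldoc, 0.71 for Slc16a3, 0.47 for P4ha2, 0.44 for Tpi1 and 0.42 for Pfkl, with a median of 0.15 over the glycolytic enzymes and 0.00 over all genes. Control B stood above control A in all 9 hypoxia-induced genes (median 0.18). Over all genes, 0.422% of all genes were over 0.5 higher in C than in A. Control C enters the MSL1 and NSL1 comparisons, and control A the MSL1 comparison.

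Genes of neighbouring pathways were counted from lists, 1 brightest probeset per gene. Of all genes, 41.2% were called on the arrays labelled NSL1. The lists, in the order below, had 61.1%, 50.0%, 70.0%, 35.3% and 46.4% called. On the arrays labelled NSL1, 11 of 18 other glycolysis genes were called (3 higher, 8 lower), led by Bpgm, the bisphosphoglycerate mutase (-0.78 ± 0.07), the glucose phosphatase G6pc3 (-0.68 ± 0.06) and the galactose mutarotase Galm (-0.53 ± 0.06). Of 14 genes handling glucose, lactate and pyruvate, 2 rose and 5 fell. Here 2 pyruvate dehydrogenase kinases moved in opposite directions, Pdk4 by 0.76 ± 0.07 and Pdk2 by -0.73 ± 0.09, and the dehydrogenase subunit Dlat fell by 0.30 ± 0.05. Of 10 pentose phosphate genes, 2 rose and 5 fell, among them Prps2 (0.46 ± 0.07), Taldo1 (-0.31 ± 0.08) and Pgls (-0.29 ± 0.09). Of 17 genes of the oxygen-sensing machinery, 4 rose and 2 fell, led by Cited2, which limits HIF at its coactivator (0.64 ± 0.06), the HIF alpha subunit Epas1 (0.87 ± 0.12) and the coactivator Ep300 (0.39 ± 0.06). Of 28 other HIF targets, 7 rose and 6 fell, with Insig2 (-0.90 ± 0.08), Plod1 (-0.40 ± 0.06) and Cxcr4 (0.43 ± 0.07) at the smallest p.

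After MOF siRNA in PGK12.1, 7 of 18 other glycolysis genes were called (3 higher, 4 lower), with Bpgm at -0.51 ± 0.07, Tigar, a bisphosphatase that diverts glucose to the pentose phosphate pathway, at 0.24 ± 0.05, and Pgm2 at -0.26 ± 0.06. The pyruvate dehydrogenase subunits Dlat (-0.25 ± 0.05), Pdhx (-0.25 ± 0.05) and Dld (-0.29 ± 0.08) fell, among 4 called of 14. Rpe was the 1 gene called of 10 in the pentose phosphate list, at 0.18 ± 0.05. In the oxygen-sensing machinery 2 of 17 rose and 4 fell, including Os9 (-0.36 ± 0.06), the HIF partner Arnt (-0.22 ± 0.05) and the asparaginyl hydroxylase Hif1an (-0.26 ± 0.06). Of 28 other HIF targets 7 rose and 2 fell, led by Ak4 (0.44 ± 0.06), Ddit4 (0.66 ± 0.10) and Plod1 (-0.37 ± 0.06). After MSL1 siRNA none of the 87 measured genes of these 5 lists was called with limma, against 0.214% of all genes. At an unadjusted p under 0.05 there were 7, against 10.3% of all genes.

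MOF plus MSL1 siRNA changed 6 genes of these lists: G6pc3 (-0.30 ± 0.08) and Tigar (0.21 ± 0.06) of the glycolysis list, and 4 of 28 HIF targets, with Plod1 (-0.47 ± 0.08), Ddit4 (0.63 ± 0.11) and Jmjd6 (0.25 ± 0.06) first. In WD44, MOF siRNA lowered 4 of 18 other glycolysis genes, among them Pgm2 (-0.31 ± 0.07), Galm (-0.33 ± 0.08) and Pgm1 (-0.52 ± 0.13), and 4 of 14 in pyruvate handling, among them the mitochondrial pyruvate carrier Mpc1 (-0.28 ± 0.06), Pdhx (-0.25 ± 0.06) and Dlat (-0.20 ± 0.06). Of the HIF targets in WD44, Bnip3 (-0.71 ± 0.16) and Adm (-0.50 ± 0.14, lower in 1 of 2 experiments) fell and Igfbp3 (0.38 ± 0.07) rose, and Bnip3 and Adm are among the genes that were higher in control 1. Hif3a was the 1 gene called of 17 in the oxygen-sensing machinery, at -0.25 ± 0.07. In E14, Tigar (0.35 ± 0.06) and Eno3 (0.33 ± 0.08) rose, the phosphatase Pdp2 rose by 0.32 ± 0.07, and Pdhx (-0.27 ± 0.06) and Mpc1 (-0.25 ± 0.06) fell. Also in E14, Plod2 (-0.37 ± 0.07), Wsb1 (-0.26 ± 0.07) and the transketolase-like Tktl1 (-0.42 ± 0.09) fell and Fam162a (0.43 ± 0.10) rose. These counts stand against the shares of all genes given above for each comparison.

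The level of each of the 31 genes is given by the mean log2 value of its probeset over the 27 arrays, which serves only to describe the signal, since probesets are not compared with each other. Glycolytic enzymes had means from 7.01 (Eno2) to 13.01 (Ldha), with Hk1 at 12.95 by its brightest probeset, Hk2 at 10.46, Pfkl at 10.34, Pfkm at 9.35, Pfkp at 10.83, Aldoa at 12.91, Aldoc at 8.69, Tpi1 at 11.93, Pgk1 at 12.67, Pgam1 at 12.40, Pkm at 12.23 and Ldhb at 9.59. The RefSeq-annotated Hk1 probeset lay lower, by up to 5.32 on a single array, so the level of Hk1 is uncertain. The carriers Slc2a1, Slc2a3 and Slc16a3 were at 12.76, 12.99 and 10.06, and the regulators Pfkfb3, Pdk1, Pdk3 and Fbp2 at 7.91, 9.01, 10.46 and 8.14. Hif1a was at 11.27, Egln1 at 9.13 and Egln3 at 8.47. Among the other hypoxia-induced genes Vegfa was at 9.15, Ankrd37 at 7.14, P4ha1 at 8.91, P4ha2 at 6.86, Ero1l at 10.67, Ndrg1 at 9.0 and Higd1a at 7.18. In the control arrays Egln3 lay between 7.04 and 8.39 in PGK12.1, 10.31 and 11.27 in WD44, and 10.31 and 10.72 in E14, where line and array set cannot be told apart.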

How the data were processed

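Expression was measured on 27 Affymetrix arrays, and per the submitters' processing notes the authors made the deposited log2 values with RMA in Affymetrix Expression Console; the version and genome build are not given in the sources used here. Controls and knockdowns were paired by the experiment number or letter in the labels. limma 3.58.1 in R 4.3.3 (lmFit, eBayes) fitted a block for each of 12 experiments and 6 knockdown coefficients to all 27 arrays, with 9 residual degrees of freedom. Of 35556 probesets, 21789 name 1 gene symbol, 1621 several and 12146 none; 16283 with a mean log2 of at least 6 and a symbol were tested together, with Benjamini-Hochberg adjustment and a threshold of 0.05. Shares over all genes use the brightest single-symbol probeset of each of 13989 genes. The script was tested on simulated data. The number of arrays limits the precision, and nothing in the labels says that experiments were separate cultures beyond their numbers, so p-values measure the spread between these arrays.

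The members and lists were chosen with earlier results of these data known. Up to 8 called members of smallest p in a comparison are given with every array's value and the other called members with their difference; up to 3 called genes of smallest p are named from each other list. Array values of further members (P4ha1 for MSL1, Ldhb and P4ha1 for NSL1, members not called in WD44 and E14) and the control differences were chosen after their values were seen. Deviations of same-numbered arrays from their group means correlated at 0.667, 0.629 and 0.867 in the PGK12.1 MOF experiments, at 0.783, 0.783 and 0.545 for NSL1, at 0.326, -0.046 and 0.358 for MSL1, at 0.262 and -0.097 for MOF plus MSL1, at 0.011 in WD44 and at 0.129 in E14. Alternatives were no replicate block, the arrays of a comparison alone, other filters on low values, centring, cyclic loess, array weights, other probesets and each array left out. Promoter sequences are from RefSeq (GRCm38.p6).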

Additional observations from a re-analysis of the deposited data

Results flagged for a closer look

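The response of Tpi1, triose phosphate isomerase, to MOF siRNA differed between PGK12.1 and WD44 by 0.437 ± 0.09 (SE, limma, adjusted p = 0.0247). Tpi1 was higher than its control in 3 of 3 PGK12.1 experiments (0.14 ± 0.06, not called) and lower in 2 of 2 WD44 experiments (-0.30 ± 0.07, called). It drew attention because the test of the difference between lines passed the threshold. It was 1 of 31 genes (3.23%), against 2.24% of all genes. The WD44 call was lost in 4 of 11 alternatives: without the replicate block, with the WD44 arrays alone, and when either WD44 experiment was left out. PGK12.1 experiments 1 and 2 had a further round of siRNA. In E14 Tpi1 was higher in 2 of 2 experiments (0.12 ± 0.07, not called), and its difference between WD44 and E14 was -0.42 ± 0.10 (adjusted p = 0.0537).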

How the results depend on the processing

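None of the 376 values of a called member under an alternative reversed: 299 stayed called and 77 did not. Without the replicate block, 2 members were called after MOF siRNA in PGK12.1 (main 5) and 0 in WD44 (main 5), and the same fit without the block called 1149 genes for MOF in PGK12.1, 10 for MSL1, 1473 for MOF plus MSL1, 91 in WD44 and 97 in E14. The NSL1 calls of Aldoc, P4ha1, Pgk1 and Pfkl were also lost without the block, and no E14 or MOF plus MSL1 member call was. With the arrays of a comparison alone, 3 members were called for MOF in PGK12.1, 1 for MOF plus MSL1, 0 in WD44 and 0 in E14 (5 and 10 at an unadjusted p under 0.05), with 1359 genes for MOF in PGK12.1 and 0 each for MSL1, WD44 and E14 (1809, 3023 and 2827 at an unadjusted p under 0.05). In E14, 2 members were called at a mean log2 of at least 7, 2 with cyclic loess and 3 with array weights (main 1). Genes called for MSL1 (main 30) were 15 with no filter, 64 at a mean of at least 7 and 250 with array weights. Genes called for MOF plus MSL1 (main 969) were 643 with no filter and 2196 with array weights, and in E14 (main 1217) 752 with no filter.

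The median of the glycolytic enzymes minus that of the hypoxia-induced genes turned below 0 for NSL1 (main 0.033) with no filter (-0.022), at a mean of at least 7 (-0.022), with cyclic loess (-0.009) and with array weights (-0.011). For MOF plus MSL1 (main 0.050) it was 0.251 without the block, 0.026 with its own arrays, 0.059 with no filter, 0.032 at a mean of at least 7, 0.046 with cyclic loess, 0.060 with array weights, 0.059 with the mean of probesets and 0.060 with RefSeq-annotated probesets. In E14 it was 0.156 with cyclic loess (main 0.222). The causes were not tested.

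Leaving out 1 array at a time gave 4 to 6 members, 2100 to 2987 genes and a median difference of 0.032 to 0.143 for MOF in PGK12.1. For MSL1 it gave 0 members, 3 to 12 genes and -0.012 to 0.126. For NSL1 it gave 10 to 13 members, 4347 to 5593 genes and -0.031 to 0.057. For MOF plus MSL1 it gave 0 members, 125 to 449 genes and -0.001 to 0.031. In WD44 it gave 0 to 6 members, 149 to 615 genes and -0.085 to 0.215. In E14 it gave 0 to 1 member, 51 to 287 genes and 0.15 to 0.21. In WD44 and E14 this leaves 1 experiment, whose spread is assumed to be like that of the others. The RefSeq-annotated probesets and the omission of controls C, D and E were chosen after seeing the data.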

Other observations

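The control arrays of E14 differed in the hypoxia-induced genes too: 8 of 9 were higher in control 1 than in control 2, with a median difference of 0.19 (all genes -0.02), and 8 of 9 were higher in the MOF array of experiment 1 than in that of experiment 2, with a median of 0.13. In WD44 the controls differed by a median of 0.44 and the MOF arrays by 0.03.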
